A study of Mus musculus with 2 samples.

Results

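The genes described here are 5 markers of the zebrin bands and of the GABA-B receptor in Purkinje cells: Aldoc, Kctd12, Gabbr1, Gabbr2 and Ebf2. They were taken from the deposited gene tables by matching identifiers to symbols, and all 5 were found among 43346 rows with Ensembl gene identifiers. RNA came from 2 laser-captured pools of Purkinje cells, with 30 cells in each, of B6CASTF1/J mice, which carry C57BL/6 and CAST genomes. The label for both is adult male at 14 months, and both pools carried spike-in RNA and had no treatment in the labels. The labels call the pools biological replicates and give them the same donor identifier, so the SD between them may be technical. There was a single group and no control, so no contrast between conditions could be tested, and the band from which the cells were cut is not in the labels.

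Purkinje cells are the output neurons of the cerebellar cortex, and they look alike but form parasagittal bands with different genes. Zebrin-positive cells hold aldolase C, the zebrin II antigen, and zebrin-negative cells hold little of it and carry genes such as Plcb4. The GABA-B receptor is a G protein-coupled receptor made of a GABA-binding subunit, Gabbr1, and a subunit that couples to Gi/o proteins, Gabbr2, and its responses are shaped by auxiliary KCTD subunits. Aldolase C is also a glial gene. In captured pools, fewer cells of a type and less RNA per cell cannot be told apart.

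The sequences that separate the isoforms are shown first, since the level of Aldoc and the transcript shares below depend on how reads were assigned to transcripts. They were read from GENCODE M21 transcripts on build GRCm38 (mm10), the C57BL/6 reference. Whether CAST reads were lost against that reference was not tested. Gabbr1 has a transcript with an upstream start (ENSMUST00000025338.11) and one with an internal start (ENSMUST00000172792.3), 4665 bases apart, and both enter the same exons at base 37050999 of chromosome 17. The coding starts of both forms are given below with the start codon in capitals, at chr17:37050854-37050998 for the internal start and chr17:37046695-37046776 for the upstream one, both on the plus strand.
Internal start: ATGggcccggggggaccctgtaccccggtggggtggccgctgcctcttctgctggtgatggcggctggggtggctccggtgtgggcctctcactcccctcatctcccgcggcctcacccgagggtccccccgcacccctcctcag
Upstream start: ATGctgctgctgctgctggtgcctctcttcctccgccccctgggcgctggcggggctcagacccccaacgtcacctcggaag
The entry of each form into the shared part follows, with the bases particular to each form in capitals and the shared bases, from 37050999 to 37051019, in lower case. Only the upstream form has a splice join there, while the internal form runs on within a single exon.
Internal form at the join: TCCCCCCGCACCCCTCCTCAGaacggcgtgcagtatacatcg
Upstream form at the join: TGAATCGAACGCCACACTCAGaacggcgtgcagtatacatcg
Before the shared part the internal form has 145 coding bases of its own, and the upstream form has 493 in 4 exons. The internal start is that of the isoform known as GABA-B1b, and the upstream start that of GABA-B1a, which carries sushi domains at its amino end. The names 1a and 1b are used for these transcripts from here on.

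Aldoc has a full coding transcript, Aldoc-202, and a short transcript annotated as non-coding, Aldoc-206, whose 706 bases all lie within exons of Aldoc-202. The join that skips an exon of 200 bases (chromosome 11, 78325935 to 78326134) is what marks Aldoc-206. It is shown beside the join in Aldoc-202, with the start of the exon that Aldoc-206 lacks in capitals. Both begin at base 78325787 on the plus strand.
Aldoc-206 join: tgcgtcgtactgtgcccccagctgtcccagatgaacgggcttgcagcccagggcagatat
Aldoc-202 join: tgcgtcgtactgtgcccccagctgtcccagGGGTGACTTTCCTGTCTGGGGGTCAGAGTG

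**Figure D1:**
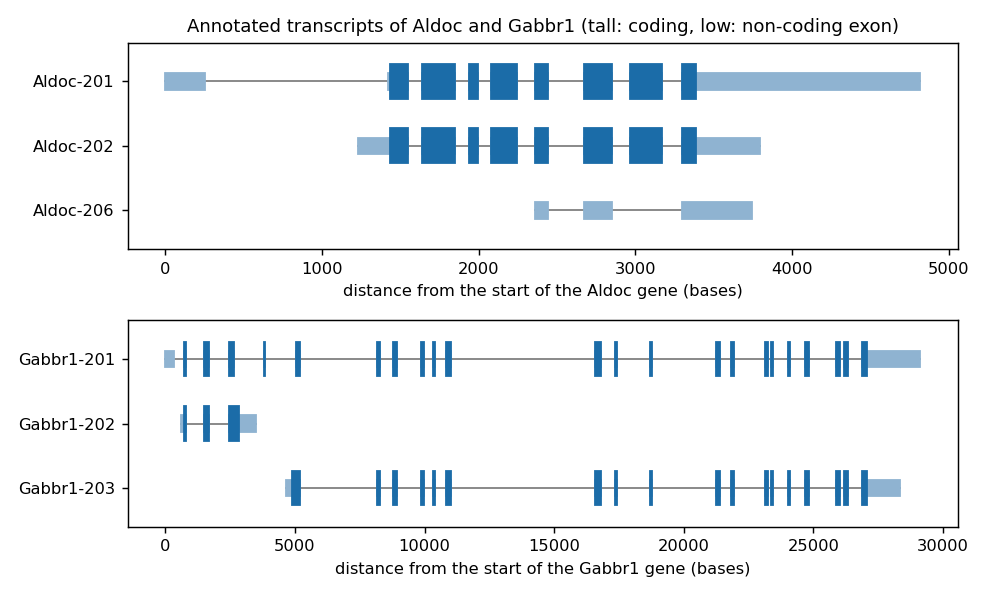
Exons of 3 annotated transcripts each of Aldoc (top) and Gabbr1 (bottom, the 1a, short upstream and 1b forms from top to bottom), by distance in bases from the start of the gene; tall boxes are coding and low boxes are non-coding. Aldoc-206 has 3 exons inside the 8 of Aldoc-202, and the 1b form starts 4665 bases after the 1a form.

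The deposited tables held 31503819 expected counts (estimated reads) in pool 1 and 28709397 in pool 2. Markers fixed for each cell type were checked against the label. Levels are in TPM, transcript abundance per length, scaled to the same sum in each library. A gene was called detected where both pools gave it 1 TPM or more. All 9 Purkinje markers used here were detected, with a summed TPM of 58039 in pool 1 and 55339 in pool 2. Of 10 Bergmann glia and astrocyte markers 9 were detected, with a sum of 2223 and 4094, and Gfap was at 0.50 and 0.47. Granule cell markers had 5 of 7 and a sum of 33.6 and 44.0 TPM, interneuron markers 2 of 7 and 139 and 415 (of which Npy, chosen after its values were seen, gave 135 and 411), and oligodendrocyte markers 3 of 6 and 36.4 and 52.6. Microglia (1 of 6, 4.01 and 3.26) and endothelial or mural markers (2 of 6, 19.1 and 13.8) were low. Red blood cell markers (4 of 5) stood far apart between the pools, with 2453 and 16.3.

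All 5 members were detected, where 30.3% of 21474 protein-coding genes were. They spanned more than 3 orders of magnitude. Aldoc, which encodes the glycolytic enzyme aldolase C (ENSMUSG00000017390.11, chromosome 11, 78322968 to 78327781), stood at 18131 TPM in the first pool and 15814 in the second, from 668884 and 494259 expected counts. Its mean of 16972 ± 1638 (SD, n = 2) ranked 6 among protein-coding genes, and Aldoc alone took 2.13% and 1.73% of gene counts. That rank is by deposited TPM. It was not recomputed with all Aldoc reads on the length of Aldoc-202, where the mean was 9557. Kctd12, an auxiliary subunit that binds the GABA-B receptor (ENSMUSG00000098557.1, chromosome 14, 102976581 to 102982637), had 147 and 124 TPM from 35457 and 25925 counts, a mean of 136 ± 15.7. Aldoc and Kctd12 were both higher in pool 1. Gabbr1 (ENSMUSG00000024462.13, chromosome 17, 37045966 to 37075067) had 120 and 130 TPM from 19450 and 18230 counts, a mean of 125 ± 6.84. Gabbr2 (ENSMUSG00000039809.9, chromosome 4, 46662305 to 46991873) had 58.0 and 52.1 TPM from 13247 and 10277 counts, a mean of 55.1 ± 4.16. Thus in TPM Gabbr1 was higher in pool 2 and Gabbr2 in pool 1. Ebf2, a transcription factor of zebrin-negative cells (ENSMUSG00000022053.9, chromosome 14, 67233292 to 67430918), had 4.20 and 5.22 TPM from 870 and 932 counts, a mean of 4.71 ± 0.721, at percentile 84.0 of protein-coding genes.

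The order of mean TPM was Aldoc, Kctd12, Gabbr1, Gabbr2 and Ebf2. Kctd12 and Gabbr1 were not ordered, since Kctd12 was the higher in pool 1 and Gabbr1 in pool 2. Every other neighbouring pair kept its order in both pools and differed by more than the SD between them. Kctd12 is overlapped on the opposite strand by 1 annotated gene, Gm26778, listed at 0 counts in both pools, and Ebf2 by 5, of which Gm6878 had 5 and 0 counts and the others 0. The strand setting of the counting was not given in the sources used here, so reads of overlapping opposite genes cannot be told apart.

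**Figure D2:**
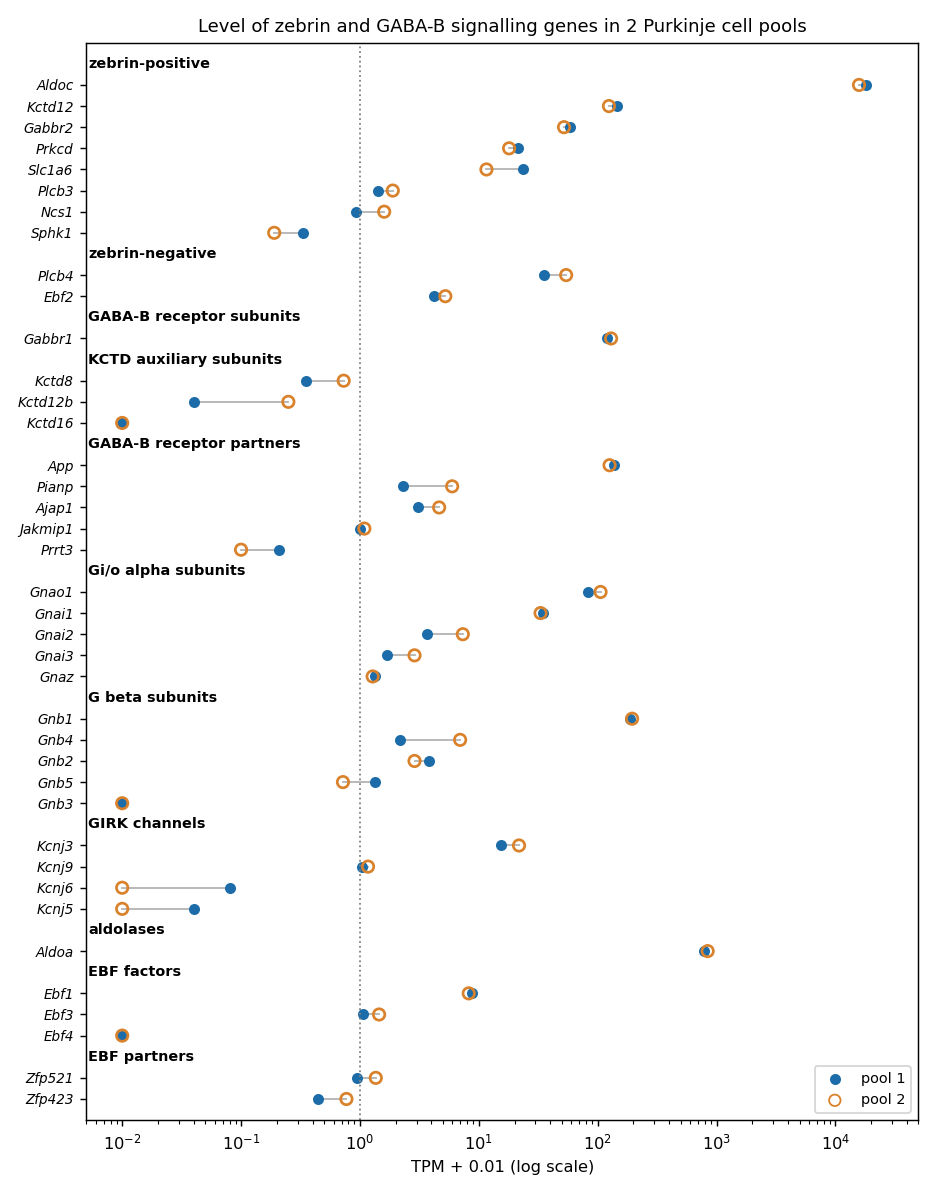
TPM + 0.01 on a log axis for the genes of the zebrin, GABA-B (RGS proteins left out), aldolase and EBF lists, each gene drawn once; filled points are pool 1, open points are pool 2, and the dotted line marks a TPM of 1. Aldoc lies highest at a mean of 16972, Kctd12 and Gabbr1 overlap between 120 and 147, and Ebf2 has a mean of 4.71.

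The zebrin-positive members Aldoc, Kctd12 and Gabbr2 were far above Ebf2 in each pool, as were Slc1a6 and Prkcd of the wider list to a lesser extent, while Plcb3, Ncs1 and Sphk1 were below it in both. The TPM of Aldoc was 4317 times that of Ebf2 in pool 1 and 3029 times in pool 2, that of Kctd12 was 34.9 and 23.8 times, and that of Gabbr2 was 13.8 and 9.98 times. All 3 ratios were lower in pool 2. These compare genes of different kinds, an enzyme and receptor proteins with a transcription factor, and are not a ratio of cells. For the phospholipase C isozymes, which are used by complementary bands, the order was the opposite. Plcb3, the isozyme of zebrin-positive cells, had 1.41 and 1.88 TPM, and Plcb4, that of zebrin-negative cells, had 35.7 and 54.3. The ratio of Plcb3 to Plcb4 was 0.0395 and 0.0346, so both pools held Plcb4 at the higher level.

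Of 8 genes on the zebrin-positive list, 6 were detected. Besides the 3 members, Slc1a6, the Purkinje cell glutamate transporter, had 23.7 and 11.6 TPM and the protein kinase C isoform Prkcd had 21.5 and 18.0. The calcium sensor Ncs1 had 0.92 and 1.59, and the sphingosine kinase Sphk1 was under 1 in both, with 0.32 and 0.18 from 25 and 12 counts. On the zebrin-negative side both Ebf2 and Plcb4 were detected.

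The level of Aldoc rested on a short transcript. Of the deposited TPM of Aldoc, 70.2% in pool 1 and 71.6% in pool 2 was assigned to Aldoc-206, with an effective length of 607 bases, and 29.4% and 28.0% to Aldoc-202, with 1601. In expected counts the shares were 46.9% (exact 95% interval 46.8 to 47.0) and 48.6% (48.5 to 48.8) for Aldoc-206 and 51.8% (51.7 to 51.9) and 50.2% (50.1 to 50.4) for Aldoc-202. Those intervals cover counting error only, not the assignment of reads between transcripts that share their bases. Reads that lie wholly within the exons of Aldoc-206 and cross neither join shown above cannot be told apart. With all reads of Aldoc placed on the length of Aldoc-202, its level was 10287 and 8827 TPM, a mean of 9557 ± 1032 (SD, n = 2), and its ratio to Ebf2 was 2452 and 1691.

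As background, a non-coding transcript was the highest by TPM in both pools in 14.0% of the 1495 protein-coding genes that reached 10 TPM in each pool and had 2 or more annotated transcripts. The member levels of Kctd12, Gabbr1, Gabbr2 and Ebf2 moved by less than the SD between pools when their reads were placed on their coding transcripts in the same way.

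The Aldoc transcript with the start furthest upstream was assigned a small share of the gene. This transcript, Aldoc-201, named after its values were seen, also has a longer 3′ end and held 0.45% and 0.39% of TPM, from 8953 and 5722 counts. Apart from its first exon and 3′ end, its exons lie within those of Aldoc-202, so the share does not measure use of that start. The 250 bases before the RefSeq start that lies 2 bases before that of Aldoc-202 are given because this start belongs to the coding transcript with the most reads (build GRCm38.p6, chr11:78323948-78324197, plus strand).
Aldoc upstream: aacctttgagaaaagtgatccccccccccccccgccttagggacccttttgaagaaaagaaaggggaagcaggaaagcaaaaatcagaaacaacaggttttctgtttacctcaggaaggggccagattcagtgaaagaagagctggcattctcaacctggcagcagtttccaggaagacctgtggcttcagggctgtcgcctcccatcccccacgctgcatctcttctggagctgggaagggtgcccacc
The core of the palindromic EBF motif, CCCNNGGG, was searched on both strands in the 250 bases before each start in the RefSeq promoter table. It was in 11.8% of 32851 entries and in none of the 5 entries that belong to Aldoc, Kctd12, Gabbr1 and Gabbr2. That says only that these letters are not in those windows.

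The GABA-B receptor was represented by both subunits and by a single KCTD gene. The ratio of Gabbr1 to Gabbr2 in TPM was 2.07 in pool 1 and 2.49 in pool 2, averaging 2.28 ± 0.297 (SD, n = 2), so the GABA-binding subunit was the higher in each pool. Kctd12 had 2.53 and 2.39 times the TPM of Gabbr2, a mean of 2.46 ± 0.0994, and 1.22 and 0.959 times that of Gabbr1. The Kctd12 to Gabbr2 ratio was the steadier of these between the pools. Of the other KCTD auxiliary subunits, Kctd8 had 0.34 and 0.72 TPM from 38 and 70 counts, and Kctd12b had 0.03 and 0.24 from 6 and 39 counts. Kctd16 was listed at 0 in both pools, where a count of 0 allows up to 3 counts in each library. Of 4 KCTD genes, then, Kctd12 alone was detected.

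Most of Gabbr1 was assigned to the internal start. The 1b transcript, with the internal start shown above, held 93.2% of the gene's TPM in pool 1 and 87.4% in pool 2, from 17884 and 15612 counts, averaging 90.3% ± 4.07 (SD, n = 2). The 1a transcript held 6.02% and 10.7%, from 1511 and 2500 counts, averaging 8.36% ± 3.31. The 1b form thus had 15.5 and 8.17 times the TPM of 1a. The forms also differ at the 3′ end, where 1a runs 763 bases further, and how many of its reads lie there is not in the tables. A short transcript of the upstream exons only, of 1460 bases and also named after its values were seen, was assigned 55 and 118 counts. It shares bases with 1a in each of its exons, so these counts also depend on how reads were assigned. Of 11 annotated Gabbr1 transcripts 3 had counts in both pools. Gabbr2, Kctd12 and Ebf2 each had 1 main coding transcript, of 5737, 6057 and 5204 bases, which held 99.9%, 100% and 100% of the gene's TPM on average.

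**Figure D3:**
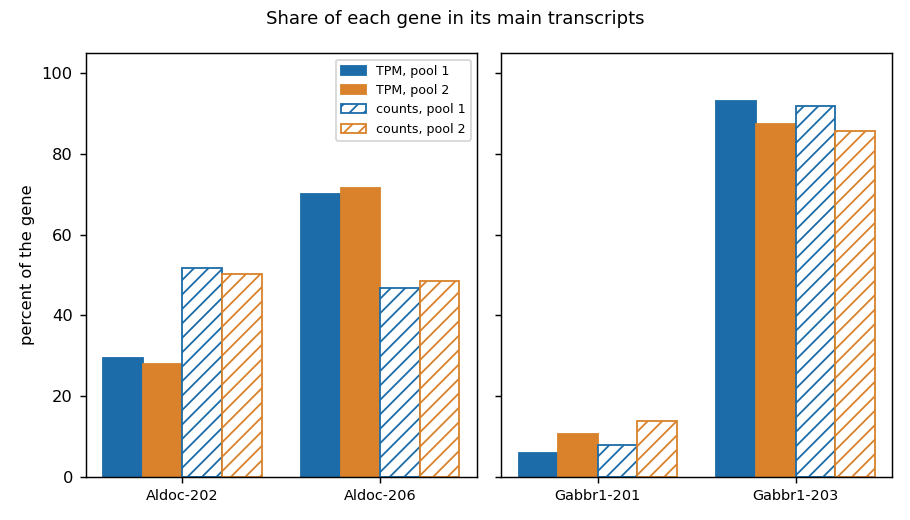
Percent of each gene held by its main transcripts in TPM (solid bars) and in expected counts (hatched bars), pool 1 in blue and pool 2 in orange; for Gabbr1 the left set of bars is 1a and the right 1b. Aldoc-206 goes from 70.9% of TPM to 47.7% of counts on average, while the 1b form of Gabbr1 stays between 85.6% and 93.2%.

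Genes that act with the receptor were called by the same threshold, which 30.3% of 21474 protein-coding genes reached in both pools. Of 5 Gi/o alpha subunits 5 were detected, led by Gnao1 (82.5 and 106) and Gnai1 (34.6 and 33.1), and of 5 G beta subunits 3 were detected, with Gnb1 highest (187 and 195), and Gnb4 (2.16 and 6.96) next by the mean but below Gnb2 (3.80 and 2.87) in pool 1. Of the 4 GIRK channel genes, potassium channels opened by G beta-gamma, Kcnj3 had 15.5 and 21.8 TPM and Kcnj9 had 1.04 and 1.16. Kcnj5 and Kcnj6 each had 5 counts in pool 1 and 0 in pool 2. Kcnj3 was thus the only GIRK gene above a TPM of 2 in these libraries. Among RGS proteins, which speed the shut-off of G protein signals, and their anchors 4 of 8 were detected, led by Rgs8 (98.6 and 111) and the membrane anchor Rgs7bp (51.8 and 51.4). Of 5 proteins known to bind the receptor 4 were detected, with App, the amyloid precursor protein, highest (139 and 126). Pianp (2.31 and 5.96) was next by the mean but below Ajap1 (3.06 and 4.63) in pool 1. Their cell of origin within the captured material was not tested.

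Paralogs of the members differed in how they compared with them. The ubiquitous aldolase Aldoa had 785 and 843 TPM, so Aldoc exceeded it 23.1-fold and 18.8-fold in deposited TPM, and 13.1-fold and 10.4-fold on the coding transcript lengths. Ebf2 was not the highest of its family: Ebf1 had 8.70 and 8.22 TPM, which was 2.07 and 1.57 times the level of Ebf2. Ebf3 had 1.05 and 1.44, and Ebf4 was listed at 0 in both pools. The zinc finger partners of EBF factors were near the threshold, with 0.94 and 1.35 TPM for Zfp521 and 0.43 and 0.76 for Zfp423.

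Between the pools Aldoc, Kctd12 and Gabbr2 were lower in pool 2 under every scaling tried, while the sign of Ebf2 and Gabbr1 turned with the scaling. The log2 ratio of TMM-scaled counts, pool 2 over pool 1, was -0.50 for Aldoc (exact 95% counting interval -0.501 to -0.490), -0.51 for Kctd12 (-0.53 to -0.49) and -0.43 for Gabbr2 (-0.46 to -0.39). It was -0.15 for Gabbr1 (-0.18 to -0.12) and 0.04 for Ebf2 (-0.09 to 0.18). With TMM scaling no member was past 2-fold, which is the case for 31.6% of 14495 genes of 10 or more counts over both pools (16.2% higher and 15.4% lower in pool 2) and for 5.64% of 3192 genes of 1000 or more, as all members have. With spike-in scaling Aldoc (-1.27), Kctd12 (-1.28) and Gabbr2 (-1.20) were past 2-fold, as were 6759 of the 14495 genes. With TMM scaling, below 0 were 4 of 5 members, against 50.3% of the genes tested and 54.6% of those with at least 1000 counts. Gabbr1 turned to 0.043 when scaled by total counts and to 0.11 on log2(TPM + 1), and Ebf2 turned to -0.73 when scaled by spike-ins, so the signs of these 2 genes depended on the scaling. With 1 library on each side there is no replicate check and no p-value, and the intervals cover counting error only.

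Other zebrin markers were compared in the same way. With TMM scaling, 6 of 8 genes on the zebrin-positive list were lower in pool 2, where 50.3% of all genes tested were. Spike-in scaling put 8 of 8 lower, but it also moved the median over all genes to -0.78. With TMM scaling the median log2 ratio of the list was -0.50, from -1.31 for Slc1a6 to 0.51 for Ncs1. Past 2-fold and lower were 2 of 8, Slc1a6 and Sphk1, where 15.4% of all genes tested were, though the counting interval of Sphk1 reached from -2.25 to -0.07. Of the zebrin-negative genes, Plcb4 had 0.29 (0.22 to 0.35) with TMM scaling and -0.48 with spike-in scaling, beside the values of Ebf2 above. Over all genes tested the median was -0.01. Scaling by spike-in totals, which were 0.211% of counts in pool 1 and 0.411% in pool 2, moved it to -0.78, scaling by total counts to 0.19 and log2(TPM + 1) to 0.13. Relative to that median the zebrin-positive list stood at -0.50 in counts and at -0.31 on log2(TPM + 1). A common scaling factor cannot change the difference between a list and all genes in counts.

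Other markers moved between the pools too. With TMM scaling, the 9 Purkinje markers used here had a median log2 ratio of -0.41, and Calb1, named after its values were seen, had -0.50, as Aldoc did. Glial markers had a median of 0.71, with 9 of 10 higher in pool 2, and that median was -0.06 with spike-in scaling. The zebrin-positive median was thus nearer to that of the Purkinje markers, while Ebf2 and Plcb4 lay between the Purkinje and glial medians. The part of cell composition in the zebrin differences was not tested, and the share of each band in a pool cannot be told apart from other differences between the pools.

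**Figure D4:**
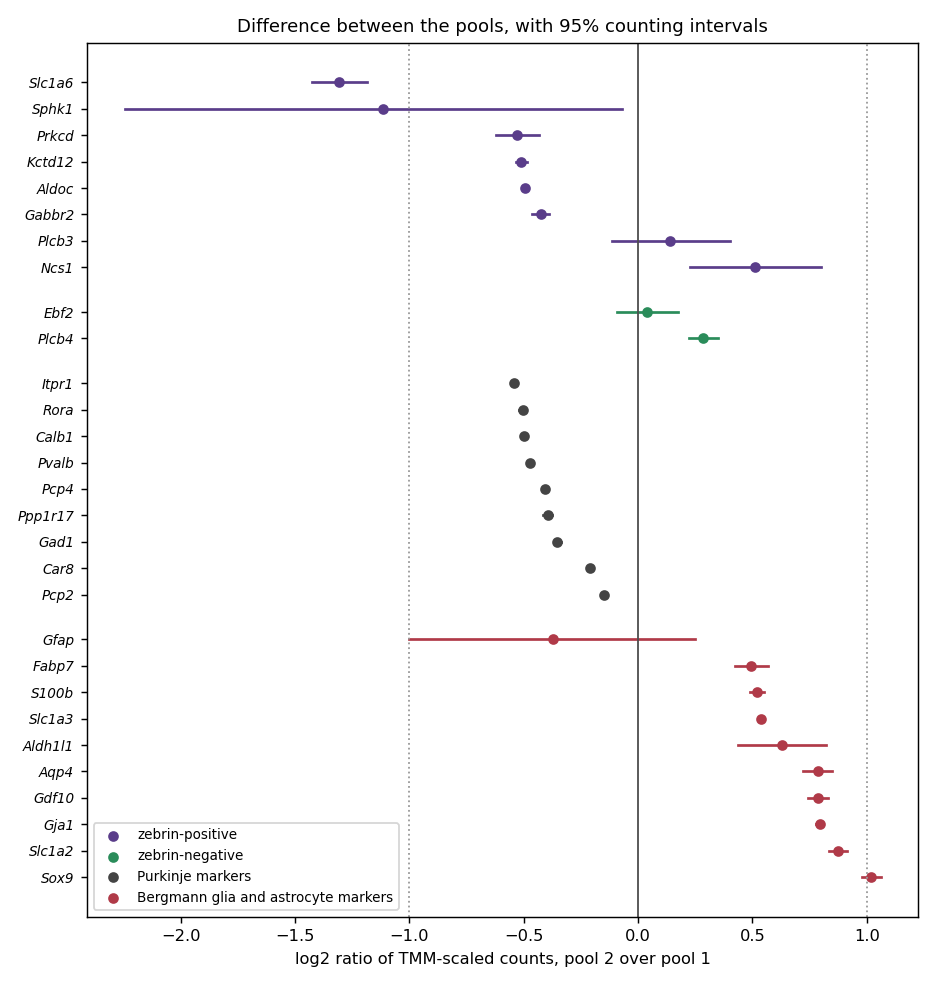
Log2 ratio of TMM-scaled counts, pool 2 over pool 1, for genes of 4 lists (purple zebrin-positive, green zebrin-negative, grey Purkinje, red glial); bars are exact 95% counting intervals and dotted lines mark 2-fold. The zebrin-positive median of -0.50 lies near the Purkinje median of -0.41, the zebrin-negative Ebf2 and Plcb4 lie above 0 (below it with spike-in scaling), and glial markers have a median of 0.71.

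The level of Aldoc was set beside a Purkinje and a glial marker, both chosen after their values were seen. Its TPM was 7.51 times that of Calb1 in pool 1 and 7.66 times in pool 2. Against Slc1a3, a glial glutamate transporter, it was 13.8 times in pool 1 and 6.88 times in pool 2. The first ratio was nearly the same in both pools, and the second was lower in pool 2, where the summed TPM of the glial markers was higher. On the coding transcript lengths the ratio was 4.27 in pool 1 and 4.28 in pool 2 to Calb1. To Slc1a3 it was 7.88 in pool 1 and 3.85 in pool 2. In TPM not every Purkinje marker moved as Calb1 did: Pcp2 went from 16296 to 17694 and Car8 from 1201 to 1255, while Aldoc was lower in pool 2. The other 7 of the 9 markers were lower in pool 2 in TPM. With TMM scaling all 9 were lower, with log2 ratios of -0.15 for Pcp2 and -0.21 for Car8. The glial share of its reads was not measured.

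The share of the upstream forms of Gabbr1 was higher in pool 2. By counts the 1a form held 7.77% of the gene in pool 1, with an exact 95% interval from 7.40 to 8.15. In pool 2 it held 13.7%, from 13.2 to 14.2, and such shares do not depend on the scaling between pools. With TMM scaling the log2 ratio was 0.67 for 1a (counting interval 0.57 to 0.76), 1.04 for the short upstream transcript (0.57 to 1.53) and -0.25 for 1b (-0.29 to -0.22). Glial markers were higher in pool 2 as well, 9 of 10 with TMM scaling, and their part in this was not tested. The Aldoc forms had log2 ratios of one sign, at -0.54 for Aldoc-202, -0.44 for Aldoc-206 and -0.70 for Aldoc-201.

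The protein-coding genes nearest to each member in level were found by Euclidean distance of log2(TPM + 1) over the 2 pools, which describes level and little else. Nearest to Aldoc were the mitochondrial mt-Atp8 (distance 0.031), Pcp2 (0.224), a Gi/o regulator of Purkinje cells, and the actin Actb (0.387). These neighbours rest on the deposited TPM of Aldoc. Nearest to Kctd12 were Uqcrc2 (0.018), Gm14419 (0.036) and Smim10l1 (0.071), and nearest to Gabbr1 were Casc4 (0.034), Reep2 (0.038) and Tonsl (0.045). Nearest to Gabbr2 were Commd3 (0.037), Atxn10 (0.071) and Gm14326 (0.072), and nearest to Ebf2 were Shisa4 (0.014), Ddb1 (0.026) and Ap1g1 (0.032). Of the 15 genes named so, only Pcp2 was on a list used here.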

How the data were processed

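RNA of 2 pools of captured cells was measured by RNA-seq with a SMARTer Ultra Low kit, per the labels' protocols. Per the text deposited with each sample, tables were made per library on mm10 with GENCODE M4; aligner and quantifier were not given in the sources used here. The deposited tables hold expected counts, TPM over all rows and FPKM, and for each transcript its percent of the gene total, per the file headers. Symbols came from a table of gene names, and types, coordinates and transcript names from GENCODE M21 on the same build. Symbols matched 42462 of 43346 genes. Rows with other identifiers were left out of tests, and spike-ins served only as a scaling.

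Expected counts were rounded, genes of 10 or more counts over both pools were kept for ratios, and scaling used TMM (edgeR 4.0.16), with DESeq2 1.42.0 size factors as an alternative; the script was tested on simulated data. An offset of 0.5 counts was used in ratios of all genes and lists, and none in those of single genes. Intervals are exact binomial (95%, scipy 1.17.1). The depth was 31503819 and 28709397 counts, without molecular identifiers in the labels, so intervals cover counting error only. No test between conditions was possible with 1 group. Members and gene lists (20 lists, 103 genes) were chosen with earlier results of these data known. Some genes of the lists are not reported here, so list counts and medians cover the others only. Named were the members, all genes of the zebrin, KCTD, GIRK, aldolase and EBF lists, the 2 highest detected genes of other signalling lists, the 3 nearest genes in level, and transcripts with at least 5% of a member's TPM; others are said to be chosen later. Marker genes are mostly given as sums. Alternatives were FPKM, posterior means, TPM of nuclear genes, other scalings and pseudocounts, no filter, and leaving out a pool. An alternative with coding transcript lengths was added after seeing the data.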

Additional observations from a re-analysis of the deposited data

How the results depend on the processing

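No paired analysis was possible because there is a single group. Of 150 recomputed values without leaving out a pool, 95 moved by less than the SD between pools, stayed within the counting interval or, for counts of genes, stayed within 1.5 times. A further 50 moved more, among them the log2 ratios of Ebf2 and Plcb3, which changed sign under spike-in totals from values whose counting interval included 0, and the other 5 changed sign. Leaving out a pool gave a range of 15814 to 18131 TPM for Aldoc, 124 to 147 for Kctd12, 120 to 130 for Gabbr1, 52.1 to 58.0 for Gabbr2 and 4.20 to 5.22 for Ebf2. In FPKM, a different unit, the means were 21320, 170.3, 156, 69.1 and 5.88 for Aldoc, Kctd12, Gabbr1, Gabbr2 and Ebf2. In TPM rescaled to nuclear genes, without spike-ins, mitochondrial genes and their chromosome 1 copies, they were 22834, 182, 168, 74.1 and 6.34. With all reads on the coding transcript's length, an alternative chosen after seeing the data, Aldoc had a mean of 9557 TPM and the Aldoc to Ebf2 ratio fell from 3673 to 2071. Shares of counts gave 51.0% for Aldoc-202 and 47.7% for Aldoc-206, and posterior means gave 99.1% for the main transcript of Ebf2 and 99.9% for that of Kctd12.

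The log2 ratios between pools moved with the scaling, which shifts all genes alike. Under total counts they were -0.30 for Aldoc, -0.31 for Kctd12, -0.23 for Gabbr2 and 0.24 for Ebf2, and Gabbr1 changed sign to 0.043. Under spike-in totals they were -1.27, -1.28, -1.20 and -0.73 for the same 4 genes and -0.92 for Gabbr1, so Ebf2 changed sign, as did Ncs1 (-0.26), Plcb4 (-0.48) and Plcb3 (from 0.14 to -0.63). With no filter on low counts Aldoc had -0.49. On log2(TPM + 1) they were -0.20 for Aldoc, -0.24 for Kctd12, -0.15 for Gabbr2, 0.26 for Ebf2 and, with a changed sign, 0.11 for Gabbr1. With a pseudocount of 0.1 they were -0.20, -0.24, -0.15 and 0.31, and 0.11 for Gabbr1. Of genes tested, 4577 were past 2-fold, against 6759 under spike-in totals, 7730 with no filter and 874 on log2(TPM + 1), where a pseudocount of 1 shrinks ratios of low genes.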
